A study of Mus musculus with 9 samples.

Results

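Cochlear RNA of 12-month-old mice (Age12) was compared with that of 8-month-old mice (Age8), and the comparison is described here for neural, glial, blood-forming, cell-cycle and muscle genes. The members were the 3 Age12 and 3 Age8 libraries, named by age group and replicate number in the sample labels, that is 6 of the 9 libraries of the series. The other 3 libraries came from 2-month-old mice (Ctrl) and are given only as background. They also differed from the Age8 libraries in the sex-linked genes Xist and Ddx3y, described at the end. In comparisons with Ctrl, age and sex therefore cannot be told apart. All were C57BL/6J mice, an inbred strain that loses hearing early in life, and the labels name no treatment, so that age is the only labelled difference. Male and female mice were used, but neither labels nor methods state how many mice, or of which sex, a library was made from, whether cochleae were pooled, or that replicates were separate animals. The p-values therefore measure the spread between these libraries, which may be technical. Genes on chromosomes X and Y were left out because the sexes were not given, which left 31041 of 32066 genes, and 17878 of these had enough counts to be tested.

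The cochlea is the coiled hearing organ of the inner ear. Its hair cells release glutamate onto spiral ganglion neurons, whose axons are wrapped by Schwann cells along the peripheral part of the auditory nerve and by oligodendrocytes nearer the brainstem. The organ lies in the temporal bone, next to bone marrow, where red cells, granulocytes, platelets and B cells are formed, and next to the muscles of the middle ear and head. Whole cochlear RNA can therefore hold transcripts of all these cells. In such bulk samples fewer cells of a type and less RNA per cell cannot be told apart.

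The libraries held between 26473126 and 37935875 counts each. Levels are given as CPM (a gene's counts per 1000000 counts of its library), with library sizes scaled by edgeR's TMM factors, in the order of replicates 1, 2 and 3, and each log2 fold change is Age12 minus Age8 with its standard error (n = 3 libraries per group). The 3 Age8 libraries were much less alike than the 3 Age12 libraries. In 75.5% of genes the level of Age8 replicate 3 was between those of the other Age8 libraries (39.4% for Age12 replicate 3), and its counts were close to a weighted sum of 52% replicate 1 and 48% replicate 2 (median chi-square per gene 0.938, against 0.455 for counting noise and 40.3 for replicate 1 against replicate 2). Whether it is an independent sample cannot be told from the files. Among the Age12 libraries, replicates 2 and 3 were the most alike (median chi-square 1.34). Replicate 1 differed more from each of them (3.39 and 3.47). Whether Age12 replicates 2 and 3 are separate samples cannot be told either. Age8 replicate 1 was low in most genes that define cochlear cells: Coch (cochlin) stood at 25.3, 1734 and 1072 CPM in Age8 and 952, 800.0 and 802 CPM in Age12, and 9 of 10 hair cell, 10 of 11 supporting cell and 11 of 12 stria vascularis genes had their lowest level of the 6 libraries there, with 1 exception in each list. The summed levels of gland and epithelium genes were high in Age8 replicates 1 and 3 and Age12 replicates 2 and 3, and low in Age8 replicate 2 and Age12 replicate 1. The secretory protein gene Ltf had 3905, 164 and 1606 CPM in Age8 and 37.5, 1733 and 1757 CPM in Age12, and the part of these differences in the results was not tested. For this reason each group of genes is also given against Age8 replicates 1 and 2 separately, and with replicate 1 or 3 left out. Since replicate 3 was close to a weighted sum of replicates 1 and 2, a fit without replicate 1 may still carry its profile. More calls in such a fit therefore do not show that a result is free of replicate 1. Whether the counting used strand is not stated, so genes that overlap another on the other strand may hold reads of it, which among the genes described below applies to Kif5a, Rab3a, Zic1, Mog, Prtn3, Mcm7, Cdk1, Ccna2, Ube2c, Tnnc2, Cdkn2c, Myh1, Myh7, Myh7b, Myl3, P2rx3, Prdm12 and Gm13425.

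Between Age8 and Age12, 682 genes rose at least 2-fold (3.81% of those tested) and 977 fell at least 2-fold (5.46%) at an adjusted p of at most 0.05 by edgeR's quasi-likelihood test, 1659 in all (9.28%). Without a limit on fold change, 1431 genes rose (8.00%) and 2438 fell (13.6%), 3869 in all (21.6%), and these are the calls counted below. Each count of called members is to be read beside these shares, which a few calls in a short list can match. The median log2 fold change of all genes tested was -0.03. The CPM of the 2 groups did not overlap in 55.6% of genes, with Age12 above in 28.8% and below in 26.8%. Of the 2-fold changes, 452 of the 682 rises and 457 of the 977 falls were at least 2-fold against each of Age8 replicates 1 and 2. The call counts depended on single libraries. Without Age8 replicate 3 edgeR called 2 rises, Scn10a and Scn11a (0.0109%), and no fall at an adjusted p of at most 0.05, with 5158 genes at an unadjusted p below 0.05, whereas DESeq2 on the same 5 libraries, a choice made after the data were examined, called 1426 rises (7.82%) and 1960 falls (10.7%). Leaving out Age12 replicate 1, 2 or 3 gave 221, 1 and 1 changes of 2-fold or more. With library totals alone in place of TMM factors the 2-fold changes became 358 rises (2.00%) and 94 falls (0.526%), and the median of all genes moved to 0.47. DESeq2 on all 6 libraries gave 1378 rises (6.79%) and 1324 falls (6.52%) of 2-fold or more, and called 13.7% of genes up and 15.8% down. With limma on log2(FPKM + 1) the 2-fold changes were 1039 rises and 95 falls, with a median of 0.23. The medians of the neural, glial, blood-forming, cell-cycle and muscle groups kept their sign, at 1.87, 2.23, -0.87, -0.48 and -0.90 with totals and 2.00, 1.73, -0.34, -0.12 and -0.87 with limma. In edgeR without Age8 replicate 3, Age12 replicate 2 or Age12 replicate 3, no neural or glial rise and no blood-forming, cell-cycle or muscle fall was called.

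The 10 largest rises included Scn10a, Scn11a, Calca and Prdm12, which are genes of pain-sensing neurons, Slc4a5 and Folr1, which are strongly expressed in the choroid plexus, the antisense-strand gene Gm13425 and Trappc3l. The 10 largest falls included Prtn3, Elane, Ms4a3, Ctsg, Mpo and Chil3 of granulocytes and their precursors, the leukocyte gene Ly6c2, the protease inhibitor gene Serpina3b and the mitotic kinase gene Pbk.

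**Figure D1:**
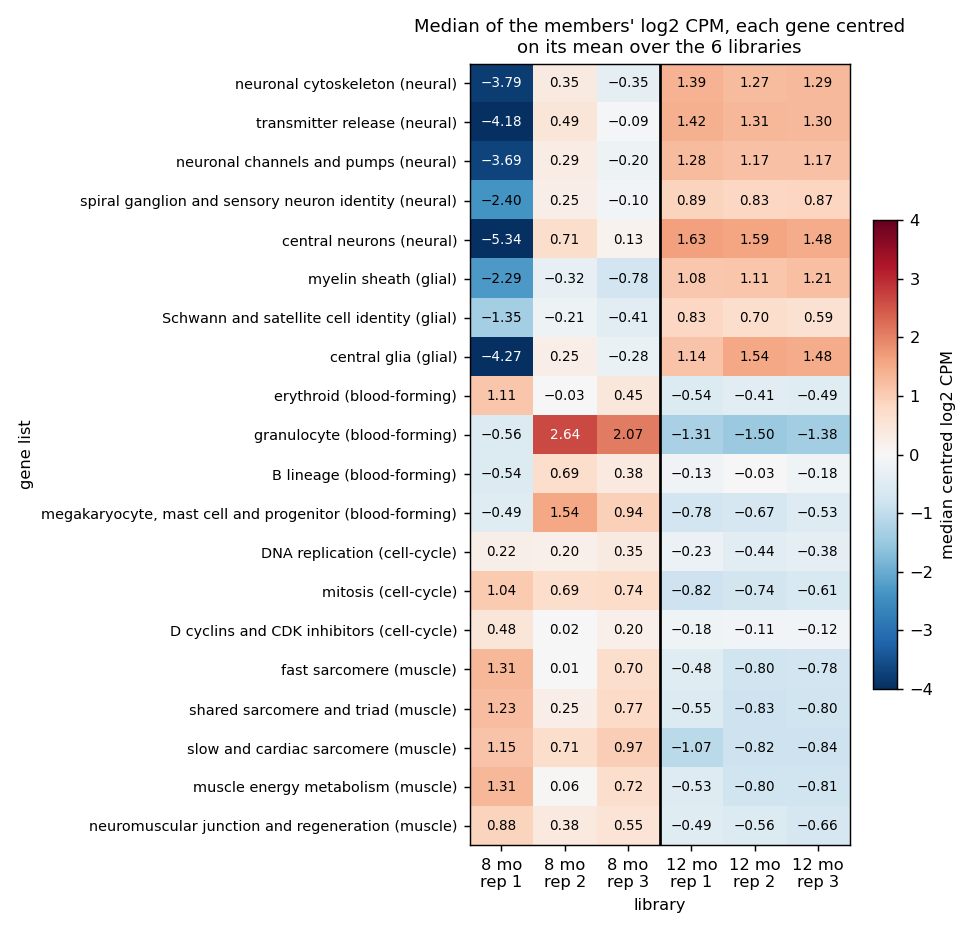
Heat map of 20 gene lists (vertical axis) in the 6 libraries (horizontal axis), where each cell is the median over the members of log2 CPM after centring each gene on its mean over the libraries, red above and blue below that mean. Neural and glial lists are lowest in Age8 replicate 1 (-4.18 for transmitter release), the granulocyte list is highest in Age8 replicate 2 (2.64), and muscle and mitosis lists lie above 0 in each Age8 library and below 0 in each Age12 library.

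Neural genes were higher in Age12, and for most of them the size of the difference depended on Age8 replicate 1. Of 77 neural genes tested, 6 rose and 1 fell, with a median log2 fold change of 1.54. The 6 rises are 7.79% of the list, near the 8.00% of all genes (13.6% of all genes fell). Age12 lay above all 3 Age8 libraries for 71 of the 77, against 28.8% of all genes. Against Age8 replicate 1 the median difference was 5.19 on the log2 scale and against Age8 replicate 2 it was 0.80, and replicate 1 was the lowest of the 6 libraries for 73 of the 77. With that library left out, edgeR called 65 rises and 2 falls among them (17.3% and 18.6% of all genes), and with Age8 replicate 3 left out DESeq2 called 9 rises and 1 fall (7.82% and 10.7%) where edgeR called none.

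Genes for proteins of synaptic vesicle release showed this pattern. Snap25, a core protein of the vesicle fusion machinery, had 8.44, 619 and 392 CPM in Age8 and 1036, 1009 and 999 CPM in Age12. The Age12 libraries were alike and above all Age8 libraries, Age8 replicate 1 was far below the others, and the difference did not pass the test (log2 fold change 1.58 ± 1.21, adjusted p = 0.353). Vamp2, its partner on the vesicle membrane, had 82.8, 301 and 229 CPM in Age8 and 470.0, 428 and 454 CPM in Age12, without overlap and without a call (log2 fold change 1.14 ± 0.45, adjusted p = 0.115). Rab3a, a small GTPase on synaptic vesicles, was the 1 of 19 release genes that rose: its 61.97, 156 and 125 CPM in Age8 were followed by 289, 288 and 293 CPM in Age12 (log2 fold change 1.34 ± 0.33, adjusted p = 0.0413). Its difference was 2.23 against Age8 replicate 1 and 0.90 against replicate 2. Rab3a overlaps another gene, Mpv17l2, whose reads may not be told apart from its own. Vamp1 had 29.5, 76.7 and 62.5 CPM in Age8 and 143, 133 and 127 CPM in Age12 and narrowly missed the threshold (adjusted p = 0.0517), and the vesicle protein gene Sv2c had 1.16, 12.3 and 9.05 CPM in Age8 and 37.9, 37.2 and 36.6 CPM in Age12 (adjusted p = 0.07496). Over the 19 release genes, summed CPM were 250.4, 2694 and 1819 in Age8 and 4592, 4426 and 4452 in Age12. For the 1 rise among them, the share over all genes was 8.00%.

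Among 14 genes of the neuronal cytoskeleton and axon, Prph and Uchl1 rose (8.00% of all genes rose) and 12 were not called. Prph encodes peripherin, an intermediate filament of peripheral neurons, and had 5.42, 13.4 and 10.7 CPM in Age8 and 121, 126 and 130.4 CPM in Age12. All Age12 libraries were at least 8.98 times the highest Age8 library (log2 fold change 3.67 ± 0.35, adjusted p = 0.00913). In FPKM, which divides by gene length, the same gene had 1.55, 6.08 and 3.89 in Age8, 61.95, 63.6 and 65.9 in Age12 and 13.9, 1.12 and 7.51 in the Ctrl libraries, so Age12 was above every younger library. Uchl1, an abundant neuronal ubiquitin hydrolase, had 32.6, 148 and 103 CPM in Age8 and 396, 406 and 423 CPM in Age12 (log2 fold change 2.11 ± 0.53, adjusted p = 0.0422). Mapt, which encodes the microtubule protein tau, had 79.3, 181 and 139.6 CPM in Age8 and 265, 285 and 295 CPM in Age12 without overlap (adjusted p = 0.0528). Kif5a, a motor of axonal transport, had 7.51, 267 and 182 CPM in Age8 and 276, 284 and 271 CPM in Age12, so that Age8 replicate 2 reached almost the Age12 level (difference 0.05 on the log2 scale) while replicate 1 did not (5.19).

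Of 20 neuronal channel and pump genes, Kcnc1 alone rose (8.00% of all genes rose). It encodes a fast potassium channel of rapidly firing neurons and had 83.4, 124 and 104 CPM in Age8 and 220.0, 211 and 209 CPM in Age12 (log2 fold change 1.04 ± 0.16, adjusted p = 0.0172). Cacna1a and Hcn2, a presynaptic calcium channel and a pacemaker channel, had adjusted p = 0.114 and 0.112, with log2 fold changes of 1.68 and 1.98. Atp1b1 had 231, 504 and 387 CPM in Age8 and 639.7, 554 and 557 CPM in Age12 (adjusted p = 0.151).

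Among 12 genes that mark spiral ganglion and other sensory neurons, 2 rose (8.00% of all genes rose). Among them was Pou4f1, a transcription factor of sensory neurons, which had 3.902, 4.96 and 4.21 CPM in Age8 and 13.97, 12.6 and 13.4 CPM in Age12, and unlike most neural genes it was as low in Age8 replicate 2 as in replicate 1 (log2 fold change 1.61 ± 0.14, adjusted p = 0.00878). Ntrk2, the receptor for brain-derived neurotrophic factor, had 17.7, 106 and 77.8 CPM in Age8 and 146, 126 and 126 CPM in Age12 (adjusted p = 0.254). Calb2 and Calb1, which encode calcium-buffering proteins of many neurons, had differences of 0.41 and 0.91 against Age8 replicate 2 but 7.63 and 7.13 against replicate 1. Isl1, another sensory neuron transcription factor, had 1.69, 5.75 and 3.78 CPM in Age8 and 9.21, 10.1 and 9.48 CPM in Age12 (adjusted p = 0.0695).

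Transcripts of central neurons were present as well. Cbln1, abundant in cerebellar granule cells, had 1.75, 136 and 92.7 CPM in Age8 and 342, 374 and 354 CPM in Age12, and the transcription factor gene Zic1 of the same cells had 13.2, 106 and 67.6 CPM in Age8 and 253, 217 and 226 CPM in Age12. Neither passed the test (adjusted p = 0.218 and 0.0968). The glycine transporter gene Slc6a5 of inhibitory brainstem neurons had 0, 1.52 and 1.13 CPM in Age8 and 4.68, 4.82 and 3.93 CPM in Age12 (adjusted p = 0.123). The 1 called member of these 12 fell: Camk2a, a calcium-dependent kinase of forebrain neurons whose locus also gives a product in skeletal muscle, had 426, 507 and 485 CPM in Age8 and 185, 144 and 138 CPM in Age12 (log2 fold change -1.60 ± 0.16, adjusted p = 0.00942). Its order among the libraries was unlike that of the other central neuron genes, since Age8 replicate 1 was near replicate 2. All other 11 members were lowest in Age8 replicate 1, and the share of brainstem or cerebellar tissue in each library was not recorded.

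Genes of pain-sensing neurons (nociceptors) differed from most of the neural genes above in being near zero in all 3 Age8 libraries or several-fold lower there. This list of 15 was written after its leading members had been seen among the largest rises, so its counts are a description. All 15 rose (8.00% of all genes), and Age12 lay above every Age8 library for each (28.8% of all genes). The median log2 fold change was 4.93, with 4.82 against Age8 replicate 1 and 4.16 against replicate 2. With the 3 members that had at most 3 counts in each Age8 library set at their lower bound, the median was 4.77. On the log2(FPKM + 1) scale, which compresses low genes, it was 1.77. Scn10a and Scn11a, neighbouring genes for the sodium channels Nav1.8 and Nav1.9 (chr9:119435988-119548388 and chr9:119582825-119654522 on GRCm39, both on the minus strand), had between 4 and 8 counts in each Age8 library. In CPM, Scn10a had 0.291, 0.254 and 0.141 in Age8 and 21.2, 18.4 and 21.5 in Age12 (log2 fold change 6.49 ± 0.27, adjusted p = 0.00283), and Scn11a had 0.291, 0.254 and 0.283 in Age8 and 15.1, 14.3 and 13.8 in Age12 (log2 fold change 5.70 ± 0.16, adjusted p = 0.000923). All Age8 libraries were near the detection limit and all Age12 libraries were alike. These were also the 2 genes that edgeR still called without Age8 replicate 3. Calca, which encodes the neuropeptide CGRP, had 0.175, 0.794 and 0.919 CPM in Age8 and 36.8, 41.6 and 42.7 CPM in Age12 (log2 fold change 5.92 ± 0.50, adjusted p = 0.00867). The young libraries were also low, with Calca FPKM of 0.52, 0.56 and 0.39 in Ctrl and 22.4, 24.8 and 25.6 in Age12, and Scn10a FPKM of 0.04, 0.02 and 0.02 and 2.73, 2.32 and 2.73. Prdm12, a regulator of nociceptor development, had 0, 3 and 2 counts in Age8 and 255, 207 and 276 in Age12, so its log2 fold change was at least 5.58. It shares part of its locus with Gm13425 on the other strand, which was at least 4.16 higher by the same measure. Mrgprd, a receptor of nonpeptidergic nociceptors, had no count in any Age8 library and 62, 67 and 72 counts in Age12, a log2 difference of at least 3.71. The heat and irritant channel genes Trpv1 and Trpa1 had at most 0.286 CPM in Age8 and at least 3.22 CPM in Age12. The smallest rise of the list was that of P2rx3, an ATP-gated channel, with 0.466, 1.37 and 1.13 CPM in Age8 and 5.34, 4.13 and 3.36 CPM in Age12 (log2 fold change 2.08 ± 0.42, adjusted p = 0.0271). It overlaps a more highly counted gene on the other strand. With all libraries scaled by their totals alone 14 of the 15 were still called (2.38% of all genes rose). How much tissue from around the cochlea each library held was not recorded, and its part in these values was not tested.

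Glial genes were higher in Age12 and they too were lowest in Age8 replicate 1. Of 34 tested, 12 rose and none fell (8.00% and 13.6% of all genes), with a median log2 fold change of 1.85. The median difference was 3.71 against Age8 replicate 1 and 1.36 against replicate 2, and Age12 lay above every Age8 library for 28 of the 34 (28.8% of all genes). Without Age8 replicate 1 edgeR called 28 rises (17.3% of all genes). Without Age8 replicate 3 it called none and DESeq2 called 15 (7.82%).

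Myelin sheath genes made up 8 of the 12 rises, among 14 tested (8.00% of all genes rose). Pmp22, a membrane protein of compact peripheral myelin, had 58.4, 108 and 85.5 CPM in Age8 and 318, 307 and 307 CPM in Age12, without overlap (log2 fold change 1.89 ± 0.23, adjusted p = 0.0134). Cldn19, a tight junction protein of Schwann cells, had 2.33, 8.45 and 5.904 CPM in Age8 and 23.7, 22.5 and 25.5 CPM in Age12 (log2 fold change 2.09 ± 0.44, adjusted p = 0.03002). Pmp2, the peripheral myelin fatty acid binding protein, was near the detection limit in Age8 at 0.175, 0.159 and 0.0707 CPM, had 1.501, 0.638 and 0.835 CPM in Age12 and rose (log2 fold change 2.88 ± 0.53, adjusted p = 0.0226).

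Genes of Schwann and satellite cell identity rose in 3 of 10 (8.00% of all genes rose). Ngfr, the low-affinity neurotrophin receptor, had 3.55, 7.02 and 7.601 CPM in Age8 and 64.3, 54.3 and 50.97 CPM in Age12, at least 6.71-fold apart in every pair of libraries (log2 fold change 3.21 ± 0.31, adjusted p = 0.00942). Scn7a, a sodium-sensing channel of nonmyelinating Schwann cells, had 6.58, 7.37 and 8.697 CPM in Age8 and 22.04, 22.1 and 19.7 CPM in Age12 (log2 fold change 1.49 ± 0.14, adjusted p = 0.00904). For this gene all 3 Age8 libraries were at the same low level, and the difference was 1.68 against replicate 1 and 1.52 against replicate 2. Dhh, a signal from Schwann cells to the nerve sheath, had 1.16, 3.81 and 3.43 CPM in Age8 and 10.5, 9.77 and 9.797 CPM in Age12 (log2 fold change 1.82 ± 0.43, adjusted p = 0.0371). Dhh overlaps another gene on the same strand with a similar number of counts, so its value is uncertain. The lineage transcription factor gene Sox10 had 16.02, 35.4 and 29.98 CPM in Age8 and 47.7, 50.9 and 49.6 CPM in Age12 and was not called (adjusted p = 0.0792). S100b, a calcium-binding protein of glia and other cells, did not separate the ages at all: it had 14.3, 642 and 399 CPM in Age8 and 531, 555 and 537 CPM in Age12, with Age8 replicate 2 the highest of the 6 libraries.

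Genes of central glia were higher in Age12, but Opalin alone of 10 was called (8.00% of all genes rose). Opalin, a protein of mature oligodendrocytes, had 0.0582, 0.794 and 0.636 CPM in Age8 and 3.92, 10.1 and 8.397 CPM in Age12 (log2 fold change 3.82 ± 0.76, adjusted p = 0.0264). Mobp and Mog of oligodendrocyte myelin followed the same order, with 14.9, 124 and 91.99 CPM in Age8 and 276, 515 and 563 CPM in Age12 for Mobp and 0.233, 6.67 and 4.21 CPM in Age8 and 20.1, 32.7 and 33.3 CPM in Age12 for Mog (adjusted p = 0.0653 and 0.07202). For these 3 genes Age12 replicates 2 and 3 were higher than Age12 replicate 1. The astrocyte filament gene Gfap had 2.27, 75.1 and 50.6 CPM in Age8 and 151, 142 and 135 CPM in Age12 (adjusted p = 0.243). The astrocyte glutamate transporter gene Slc1a2 had 3.902, 258 and 154 CPM in Age8 and 215, 186 and 195 CPM in Age12, so that Age8 replicate 2 was above all Age12 libraries.

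**Figure D2:**
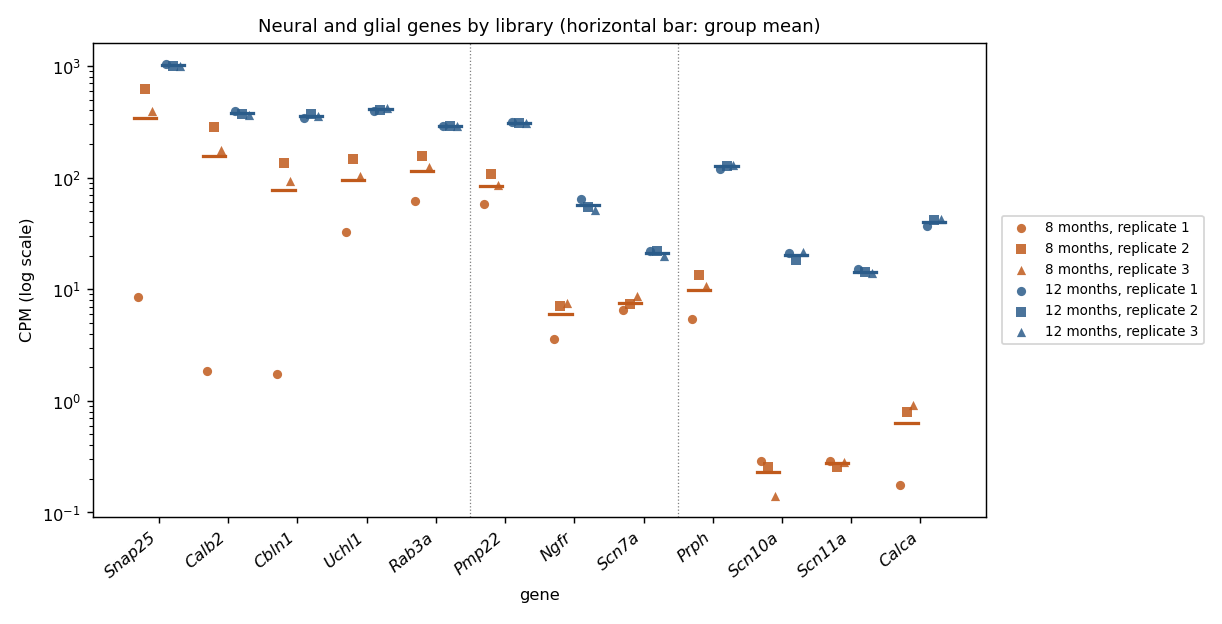
CPM (vertical axis, log scale) of 12 neural and glial genes (horizontal axis) in the 3 Age8 and 3 Age12 libraries, with a bar at each group mean and a symbol for each replicate. For Snap25, Calb2 and Cbln1 Age8 replicate 1 (circle) lies far below replicates 2 and 3, whereas for Prph, Scn10a, Scn11a and Calca all 3 Age8 libraries lie far below Age12.

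Blood-forming genes were lower in Age12, but different lineages were high in different Age8 libraries. Of 63 tested, 1 rose and 24 fell (8.00% and 13.6% of all genes), with a median log2 fold change of -1.51. The median difference was -0.90 against Age8 replicate 1 and -1.04 against replicate 2. Without Age8 replicate 1 edgeR called 39 of the 63 lower, or 40 with a member that was tested in that fit and not in the main comparison (18.6% of all genes). Without Age8 replicate 3 it called none and DESeq2 called 27 falls (10.7%). With library totals alone none was called.

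Granulocyte genes fell in 11 of 15 (13.6% of all genes fell), with a median of -3.29 (-2.02 with 1 fall under limma on log2(FPKM + 1)). All 15 had their highest level in Age8 replicate 2. Elane, the neutrophil elastase gene of granulocyte precursors, had 3.44, 55.1 and 38.96 CPM in Age8 and 1.27, 1.53 and 1.38 CPM in Age12. Age8 replicate 1 was nearer to the Age12 level (difference -1.27) while replicate 2 was far above it (-5.25), and the gene was called (log2 fold change -4.54 ± 1.00, adjusted p = 0.03201). Prtn3, proteinase 3 of the same granules, had 3.844, 65.1 and 38.8 CPM in Age8 and 1.71, 1.61 and 1.196 CPM in Age12 (log2 fold change -4.58 ± 1.014, adjusted p = 0.0327), and it overlaps Plppr3 on the other strand. Mpo, myeloperoxidase, had 8.15, 122 and 76.05 CPM in Age8 and 6.26, 4.13 and 3.45 CPM in Age12 (log2 fold change -3.90 ± 0.97, adjusted p = 0.0414). Genes of later stages behaved alike, such as Ngp of secondary granules with 41.2, 267 and 198 CPM in Age8 and 19.04, 16.7 and 15.9 CPM in Age12 (log2 fold change -3.29 ± 0.68, adjusted p = 0.0281). Retnlg and Mmp8 of mature neutrophils differed by -1.79 and -1.64 even against Age8 replicate 1, and both fell (adjusted p = 0.0201 and 0.0205). S100a9, a calcium-binding protein that fills the neutrophil cytoplasm, had 74.02, 539.7 and 338 CPM in Age8 and 40.7, 38.4 and 45.6 CPM in Age12 (log2 fold change -2.93 ± 0.70, adjusted p = 0.0379), and its partner S100a8 was not called (adjusted p = 0.0534). Over the 15 genes the summed CPM were 205, 1712 and 1046 in Age8 and 113, 108 and 112 in Age12. In FPKM, Elane had 1.77, 10.2 and 6.17 in Ctrl, so the replicates of that age also differed among themselves.

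Red cell genes had the opposite order within Age8. Of 24 tested, 8 fell and none rose (13.6% and 8.00% of all genes), with a median of -1.07 (-0.49 with library totals and -0.23 with limma). Of the 24, 18 had their highest level in Age8 replicate 1 (difference -1.54, against -0.47 for replicate 2). Hbb-bs and Hba-a1, adult globin chains whose near-identical copies make their separate counts uncertain, had 740.0, 345 and 511 CPM in Age8 and 252, 266 and 265 CPM in Age12 for Hbb-bs, and 422, 144 and 226 CPM in Age8 and 112, 141 and 135 CPM in Age12 for Hba-a1. Neither was called (adjusted p = 0.0509 and 0.108), and Age12 lay below Age8 for both. Rhag, a membrane protein of the Rh complex on red cell precursors, had 1.98, 1.302 and 1.31 CPM in Age8 and 0.331, 0.459 and 0.271 CPM in Age12 (log2 fold change -2.09 ± 0.33, adjusted p = 0.0177), and it was low in all 3 Age12 libraries. Cldn13, a claudin of mouse erythroblasts, had 1.51, 1.05 and 1.45 CPM in Age8 and 0.5599, 0.638 and 0.361 CPM in Age12 (log2 fold change -1.35 ± 0.32, adjusted p = 0.0366). Ank1, the ankyrin of the red cell membrane that muscle also makes in a short form, had 387, 297 and 346 CPM in Age8 and 244, 204 and 202 CPM in Age12 (log2 fold change -0.66 ± 0.15, adjusted p = 0.0323).

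Among 13 genes of megakaryocytes, mast cells and progenitors, 4 fell (13.6% of all genes fell) and 11 were highest in Age8 replicate 2. The platelet chemokine genes Pf4 and Ppbp had 8.85, 27.98 and 19.7 CPM in Age8 and 5.62, 5.46 and 5.101 CPM in Age12 for Pf4, and 2.97, 44.7 and 27.8 CPM in Age8 and 2.11, 2.73 and 2.73 CPM in Age12 for Ppbp. Pf4 fell (log2 fold change -1.81 ± 0.41, adjusted p = 0.0349) and Ppbp was not called (adjusted p = 0.0518). The progenitor transcription factor genes Gfi1b and Myb fell against every Age8 library, with 0.699, 1.11 and 0.884 CPM in Age8 and 0.229, 0.255 and 0.135 CPM in Age12 for Gfi1b, and 3.203, 6.23 and 5.13 CPM in Age8 and 1.32, 1.91 and 1.42 CPM in Age12 for Myb (log2 fold changes -2.12 ± 0.36 and -1.65 ± 0.31, adjusted p = 0.0197 and 0.0244). Gata2, a factor of progenitors and mast cells that other tissues also express, had 9.43, 16.7 and 14.6 CPM in Age8 and 14.8, 15.6 and 14.1 CPM in Age12 with overlapping groups.

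The B lineage did not move together. Of 11 tested genes Pax5 fell and Ebf1 rose (13.6% and 8.00% of all genes). The median was -0.36, which became 0.08 with library totals alone and 0.01 with limma on log2(FPKM + 1). Pax5, the B cell identity factor, had 4.08, 6.099 and 5.13 CPM in Age8 and 3.003, 2.88 and 2.53 CPM in Age12 (log2 fold change -0.86 ± 0.21, adjusted p = 0.0399). Ebf1, a factor of early B cells that is also made by fibroblasts and other stromal cells, had 19.2, 29.3 and 28.1 CPM in Age8 and 53.3, 51.3 and 51.1 CPM in Age12 (log2 fold change 1.02 ± 0.18, adjusted p = 0.0203). The antigen receptor chain gene Cd79b had 1.57, 4.16 and 3.29 CPM in Age8 and 1.07, 1.07 and 1.603 CPM in Age12 and was not called (adjusted p = 0.0728).

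Cell-cycle genes were lower in Age12, and the mitotic members differed little among the Age8 libraries. Of 83 tested, 1 rose and 50 fell (8.00% and 13.6% of all genes), with a median log2 fold change of -0.98. The median difference was -1.12 against Age8 replicate 1 and -0.90 against replicate 2. Without Age8 replicate 1 edgeR called 53 falls (18.6% of all genes). Without Age8 replicate 3 it called none and DESeq2 called 49 (10.7%), and with library totals alone 9 falls were called (1.14% of all genes), with a median of -0.48 where all genes had 0.47.

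Mitosis genes fell in 32 of 39, with a median of -1.60, and none rose (13.6% of all genes fell and 8.00% rose). The median became -1.09 with 6 falls under library totals and -0.23 with 21 falls under limma on log2(FPKM + 1). Mki67, the proliferation antigen Ki-67, had 25.7, 20.6 and 23.1 CPM in Age8 and 5.17, 5.03 and 4.67 CPM in Age12. All Age8 libraries were at one level and all Age12 libraries at another, at least 3.98-fold lower (log2 fold change -2.22 ± 0.13, adjusted p = 0.00501), and the Ctrl libraries were between those of Age8 and Age12 by FPKM, nearer to Age8 (1.31, 1.28 and 1.24 in Ctrl, 1.46, 1.85 and 1.67 in Age8 and 0.53, 0.5 and 0.47 in Age12). Top2a, the topoisomerase that untangles replicated chromosomes, had 11.5, 12.7 and 12.8 CPM in Age8 and 1.43, 1.58 and 2.05 CPM in Age12 (log2 fold change -2.87 ± 0.19, adjusted p = 0.00602). Aurkb, the kinase of the chromosomal passenger complex, had 1.81, 2.45 and 1.87 CPM in Age8 and 0.254, 0.2297 and 0.248 CPM in Age12 (log2 fold change -3.05 ± 0.25, adjusted p = 0.00823). Both were lower in every Age12 library than in any Age8 library. Tpx2, a spindle assembly factor, was among the 7 that were not called, with 10.1, 7.94 and 9.83 CPM in Age8 and 8.07, 6.53 and 6.34 CPM in Age12 (adjusted p = 0.127). Ube2c, a ubiquitin-conjugating enzyme of mitotic exit, had 2352, 829 and 1297 CPM in Age8 and 581, 505 and 485 CPM in Age12 (log2 fold change -1.51 ± 0.39, adjusted p = 0.0456). It lies on chromosome 2 next to the fast muscle troponin gene Tnnc2 on the other strand, with overlapping gene models, and Tnnc2 had 17593, 6764 and 11482 CPM in Age8 and 4862, 4318 and 4366 CPM in Age12 in the same order. Whether the counting kept the strands apart is not stated, so the Ube2c values may hold reads of its neighbour and are uncertain.

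The start regions of the mitosis genes were searched for 2 short elements known from such genes. Every member with a window entered, called or not, and no Age8 or Age12 level was used. The shares below therefore describe the list and not its fall in Age12. Promoters of late cell-cycle genes are known for a CCAAT box, bound by the factor NF-Y, and for the cell-cycle homology region TTTGAA, bound by the MuvB complex. In RefSeq promoters of 300 bases (250 before to 50 after the annotated start, mouse build GRCm38.p6), searched on both strands, 33 of the 39 mitosis genes were found with 35 windows. CCAAT was in 80% of these windows, against 37.4% of all 32851 windows, and TTTGAA in 77.1%, against 17.9%. CCAAT was also frequent in windows of the granulocyte (60%), DNA replication (58.1%) and erythroid (52.9%) lists. It was in 37.5% of slow and cardiac sarcomere windows and 14.3% of neuronal cytoskeleton windows. TTTGAA was in at most 26.7% of the windows of any of these lists. Both were in 25 of the 35 windows (71.4%, against 6.95%). These are letter matches, and binding was not measured. The 4 windows printed here belong to called members with the smallest adjusted p that hold both, and capitals mark CCAAT or its reverse ATTGG and TTTGAA or its reverse TTCAAA. They are from chr7:135716330-135716629 (minus strand), chr11:99024140-99024439 (minus), chr10:69352863-69353162 (minus) and chr19:37376132-37376431 (plus).
Mki67: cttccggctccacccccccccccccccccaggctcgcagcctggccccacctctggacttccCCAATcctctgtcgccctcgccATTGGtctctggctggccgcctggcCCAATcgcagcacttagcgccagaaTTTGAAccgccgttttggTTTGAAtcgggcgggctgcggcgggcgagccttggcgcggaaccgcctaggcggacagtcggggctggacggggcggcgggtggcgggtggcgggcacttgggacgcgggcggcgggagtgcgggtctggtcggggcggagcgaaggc
Top2a: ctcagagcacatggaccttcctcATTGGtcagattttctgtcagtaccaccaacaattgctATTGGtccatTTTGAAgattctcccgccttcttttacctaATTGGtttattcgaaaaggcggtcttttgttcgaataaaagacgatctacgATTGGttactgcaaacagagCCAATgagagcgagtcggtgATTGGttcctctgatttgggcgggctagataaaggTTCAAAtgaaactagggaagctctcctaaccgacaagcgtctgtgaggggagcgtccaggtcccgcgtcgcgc
Cdk1: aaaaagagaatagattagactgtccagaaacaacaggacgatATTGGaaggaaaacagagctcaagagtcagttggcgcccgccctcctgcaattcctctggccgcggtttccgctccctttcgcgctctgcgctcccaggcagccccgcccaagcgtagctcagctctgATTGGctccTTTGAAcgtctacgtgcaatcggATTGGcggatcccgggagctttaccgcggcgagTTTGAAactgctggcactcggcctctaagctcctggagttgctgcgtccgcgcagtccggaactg
Kif11: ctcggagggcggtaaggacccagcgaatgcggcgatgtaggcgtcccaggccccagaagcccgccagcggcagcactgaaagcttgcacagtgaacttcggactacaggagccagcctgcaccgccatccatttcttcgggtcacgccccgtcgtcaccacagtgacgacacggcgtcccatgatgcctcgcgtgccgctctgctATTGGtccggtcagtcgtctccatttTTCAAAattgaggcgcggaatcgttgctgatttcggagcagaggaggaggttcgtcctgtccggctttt

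The kinase Cdk1, which drives entry into mitosis, had 8.33, 6.32 and 6.47 CPM in Age8 and 1.68, 1.43 and 1.65 CPM in Age12 (log2 fold change -2.15 ± 0.20, adjusted p = 0.00892), and the spindle motor gene Kif11 had 4.25, 4.098 and 3.54 CPM in Age8 and 1.4, 1.05 and 1.42 CPM in Age12 (log2 fold change -1.61 ± 0.21, adjusted p = 0.0141). Cdk1 overlaps the larger gene Ank3 on the other strand.

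Of 31 DNA replication genes tested, 14 fell and none rose (13.6% and 8.00% of all genes), with a median of -0.73. The median became -0.21 with 2 falls under library totals and -0.10 with 5 falls and 1 rise under limma on log2(FPKM + 1). Rrm2, the cycling subunit of ribonucleotide reductase, had 8.68, 9.37 and 7.99 CPM in Age8 and 2.62, 1.68 and 2.19 CPM in Age12 (log2 fold change -2.001 ± 0.21, adjusted p = 0.0109). Exo1, a DNA exonuclease, had 0.932, 1.11 and 0.9899 CPM in Age8 and 0.204, 0.204 and 0.181 CPM in Age12 (log2 fold change -2.35 ± 0.25, adjusted p = 0.0104). Uhrf1, which maintains DNA methylation after replication, had 5.88, 5.11 and 6.01 CPM in Age8 and 1.25, 1.38 and 1.78 CPM in Age12 (log2 fold change -1.94 ± 0.21, adjusted p = 0.0114). Other members were not called, and Pcna and Mcm7 turned to log2 fold changes of 0.23 and 0.30 with library totals alone. Pcna, the sliding clamp of DNA polymerase, had 31.5, 35.4 and 34.9 CPM in Age8 and 28.9, 27.7 and 28.3 CPM in Age12 (log2 fold change -0.26 ± 0.09, adjusted p = 0.0798), and the helicase subunit gene Mcm7 had 18.3, 20.4 and 18.2 CPM in Age8 and 17.03, 16.7 and 16.05 CPM in Age12 (log2 fold change -0.19 ± 0.10, adjusted p = 0.184). Rrm1, the constant subunit of ribonucleotide reductase, fell, with 47.6, 35.8 and 39.7 CPM in Age8 and 28.2, 24.5 and 24.9 CPM in Age12 (log2 fold change -0.66 ± 0.14, adjusted p = 0.0277). Replication genes are known targets of E2F factors, and the E2F element TTTCGCGC was in 6 of 31 RefSeq windows of 25 members (19.4%, against 0.323% of all windows), whereas TTTGAA was in 16.1%. The window of Uhrf1 (chr17:56304063-56304362, plus strand, GRCm38.p6) is the called member of smallest adjusted p that holds it, with the element in capitals.
Uhrf1: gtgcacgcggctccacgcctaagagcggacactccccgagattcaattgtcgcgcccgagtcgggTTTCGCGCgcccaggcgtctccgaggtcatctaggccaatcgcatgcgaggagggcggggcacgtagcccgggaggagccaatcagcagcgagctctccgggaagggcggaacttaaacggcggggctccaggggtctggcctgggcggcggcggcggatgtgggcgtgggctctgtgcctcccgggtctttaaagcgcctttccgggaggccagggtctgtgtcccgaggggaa

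Among 13 D cyclins, inhibitors and arrest genes, 4 fell and 1 rose (13.6% and 8.00% of all genes). The median was -0.37, which became 0.20 with library totals alone and 0.12 with limma on log2(FPKM + 1). Ccng1, a cyclin that p53 induces, had 808, 524 and 609.6 CPM in Age8 and 292, 255 and 241 CPM in Age12 (log2 fold change -1.30 ± 0.20, adjusted p = 0.0168). The growth arrest gene Gas1 and the CDK inhibitor gene Cdkn1c had log2 fold changes of -0.60 and -0.49, with 36.5, 39.5 and 39.8 CPM in Age8 and 27.6, 24.4 and 24.3 CPM in Age12 for Gas1, and 65.2, 68.2 and 65.8 CPM in Age8 and 52.2, 46.96 and 43.05 CPM in Age12 for Cdkn1c (adjusted p = 0.0181 and 0.0279). In FPKM the groups of both genes overlapped (exact permutation p = 0.6 and 0.9, where the smallest possible p is 0.1). With library totals alone the log2 fold change of Cdkn1c was 0.01. The fourth fall was that of Cdkn2c and the rise that of Cdkn1b, both CDK inhibitor genes (log2 fold changes -0.94 ± 0.25 and 0.45 ± 0.09, adjusted p = 0.0467 and 0.0294). The p53 targets Cdkn1a and Btg2 had overlapping groups, with 109.7, 69.2 and 88.2 CPM against 66.3, 72.8 and 73.5 CPM and 124, 34.2 and 72.1 CPM against 60.5, 71.1 and 69.4 CPM.

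**Figure D3:**
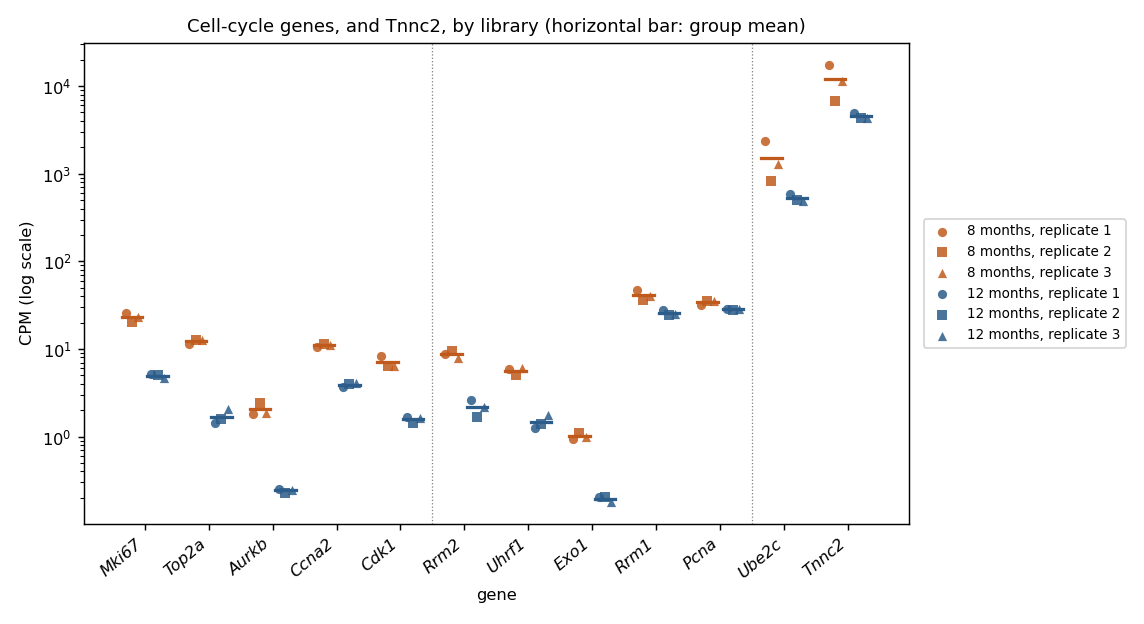
CPM (vertical axis, log scale) of 11 cell-cycle genes and of the muscle gene Tnnc2 (horizontal axis) in each library, with a bar at the group mean. Mki67, Top2a, Aurkb, Ccna2 and Cdk1 separate into a tight Age8 group and a tight Age12 group. Rrm1, which was called, and Pcna, which was not, differ less than these, and Ube2c repeats the spread of Tnnc2 among the Age8 libraries.

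Red cell promoters were searched in the same way, because GATA1, the main factor of red cell genes, binds AGATAA. The element was in 8 of 17 erythroid windows (47.1%), against 11.2% of all windows and 13.3% of granulocyte windows. It was in 2 of 7 neuronal cytoskeleton windows (28.6%). In slow and cardiac sarcomere, mitosis and DNA replication windows its shares were 12.5%, 8.57% and 3.23%. The window shown, with AGATAA in capitals, is from Hemgn (chr4:46404134-46404433, minus strand, GRCm38.p6), a nuclear protein gene of erythroblasts that fell from 2.04, 1.302 and 2.16 CPM in Age8 to 0.382, 0.638 and 0.135 CPM in Age12 (log2 fold change -2.24 ± 0.56, adjusted p = 0.0422).
Hemgn: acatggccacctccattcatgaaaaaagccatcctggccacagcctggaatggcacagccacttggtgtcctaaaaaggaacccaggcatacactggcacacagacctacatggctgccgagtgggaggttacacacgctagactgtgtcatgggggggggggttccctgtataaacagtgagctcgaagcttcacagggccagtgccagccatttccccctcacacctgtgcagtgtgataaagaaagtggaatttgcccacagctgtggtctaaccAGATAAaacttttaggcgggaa

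Muscle genes were lower in Age12 and took up a large part of every library. All muscle genes together made up 23.6, 15.2 and 19.6% of the counts in Age8 and 12.1, 9.74 and 9.86% in Age12. Of 69 tested, 1 rose and 50 fell (8.00% and 13.6% of all genes), with a median log2 fold change of -1.48, and Age12 lay below every Age8 library for 60 (26.8% of all genes). The median difference was -1.96 against Age8 replicate 1, which had the highest level of 62 of the 69, and -0.87 against replicate 2. Without Age8 replicate 1 edgeR called 60 falls (18.6% of all genes). Without Age8 replicate 3 it called none and DESeq2 called 59 (10.7%). In a fit of all 9 libraries, where the spread among the Ctrl libraries enters the estimate, 17 of the 69 fell and none rose (14.2% and 9.96% of all genes).

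Genes of fast fibres fell in 5 of 13 (13.6% of all genes fell). Myh4, the myosin of the fastest fibres, had 27399, 12023 and 19034 CPM in Age8 and 9338, 7549 and 7729 CPM in Age12. Age12 was below each Age8 library, without a call (log2 fold change -1.25 ± 0.41, adjusted p = 0.0766). Myh1 and Myh2, the myosins of intermediate fast fibres, fell, with 7835, 3299 and 5268 CPM in Age8 and 1679.7, 1543 and 1558 CPM in Age12 for Myh1, and 2103, 1307 and 1714 CPM in Age8 and 660.3, 513 and 536 CPM in Age12 for Myh2 (log2 fold changes -1.78 ± 0.35 and -1.58 ± 0.23, adjusted p = 0.0263 and 0.0163). The calcium pump gene Atp2a1 and the troponin gene Tnnt3 had differences of -0.81 and -0.70 against Age8 replicate 2 and were not called (adjusted p = 0.0615 and 0.0671), while Actn3, the alpha-actinin of fast fibres, fell (log2 fold change -1.48 ± 0.30, adjusted p = 0.0276).

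Genes of the slow and cardiac sarcomere fell in 11 of 13 (13.6% of all genes fell). Myh7, the slow myosin (chr14:55208141-55232084 on GRCm39, minus strand), had 427, 350.3 and 406 CPM in Age8 and 68.3, 85.6 and 85.9 CPM in Age12, at least 4.08-fold apart (log2 fold change -2.30 ± 0.15, adjusted p = 0.00541). Its difference was -2.43 against Age8 replicate 1 and -2.14 against replicate 2, and the Ctrl libraries were all below Age8 by FPKM (0.42, 17.5 and 8.45 in Ctrl, 28.4, 36.8 and 34.4 in Age8 and 8.14, 9.99 and 10.1 in Age12). Tnni1, the slow troponin I, had 177, 144 and 159 CPM in Age8 and 28.3, 35.1 and 34.97 CPM in Age12 (log2 fold change -2.29 ± 0.14, adjusted p = 0.00501). Myl2 and Myl3, slow myosin light chains, had 449, 281 and 352 CPM in Age8 and 71.7, 85.01 and 89.2 CPM in Age12 for Myl2, and 132, 119 and 120.1 CPM in Age8 and 28.5, 28.7 and 29.2 CPM in Age12 for Myl3. Both fell (log2 fold changes -2.14 ± 0.21 and -2.10 ± 0.09, adjusted p = 0.00942 and 0.00283), as did Tnnt1 (log2 fold change -1.96 ± 0.19, adjusted p = 0.00942) and Myoz2 (log2 fold change -2.11 ± 0.10, adjusted p = 0.004001). By list median, Age12 replicate 1 was the lowest library for slow genes and the highest of the Age12 libraries for fast and shared genes. The 1 rise in the list was that of Myh7b, a myosin that is scarce in most muscles, with 4.43, 4.796 and 4.49 CPM in Age8 and 7.38, 6.43 and 6.77 CPM in Age12 (log2 fold change 0.59 ± 0.14, adjusted p = 0.0393). Its counts were fewer than those of either of the 2 genes that it overlaps on the other strand, so this value is uncertain.

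Among the sarcomere and triad genes listed as shared between fibres, 17 of 19 fell (13.6% of all genes fell). Acta1, skeletal actin, had 41211, 15229.8 and 25853 CPM in Age8 and 9734, 7748 and 7655 CPM in Age12 and just missed the threshold (adjusted p = 0.0535). The giant protein genes Ttn (titin) and Neb (nebulin) both fell (adjusted p = 0.0292 and 0.0114). Ttn had 7473, 3635 and 5649 CPM in Age8 and 2231, 1761 and 1717 CPM in Age12. Neb had 1268, 976 and 1093 CPM in Age8 and 457, 393 and 404 CPM in Age12. Myot, a Z-disc protein, had 1533, 981 and 1227 CPM in Age8 and 403, 313 and 304 CPM in Age12 (log2 fold change -1.88 ± 0.22, adjusted p = 0.0125). The thin filament and triad genes Tpm2 and Jph1 also fell (-1.52 ± 0.39 and -1.49 ± 0.19 on the log2 scale, adjusted p = 0.0447 and 0.01403). Genes of muscle energy metabolism fell in 9 of 12 (13.6% of all genes fell). Ckm, muscle creatine kinase, had 26981, 11486 and 17758 CPM in Age8 and 7449, 6036 and 6149 CPM in Age12 (adjusted p = 0.0505), Mb, myoglobin, had 4228, 2181 and 3005 CPM in Age8 and 1174, 974 and 987 CPM in Age12 (adjusted p = 0.02204), and the glycogen phosphorylase gene Pygm had 8818, 3288 and 5682 CPM in Age8 and 2142, 1710.1 and 1713 CPM in Age12 (adjusted p = 0.0381).

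Genes of the neuromuscular junction and of muscle regeneration fell in 8 of 12 (13.6% of all genes fell). Myf6, a transcription factor of mature fibres, had 145, 102 and 121 CPM in Age8 and 32.9, 27.9 and 27 CPM in Age12 (log2 fold change -2.07 ± 0.16, adjusted p = 0.00814). The separation was 3.12-fold or more in every pair of libraries. The myogenic factor genes Myog and Myod1 had 4.02, 4.22 and 5.41 CPM in Age8 and 1.37, 1.23 and 1.29 CPM in Age12 for Myog, and 43.04, 23.3 and 31.7 CPM in Age8 and 13.3, 11.2 and 10.9 CPM in Age12 for Myod1 (adjusted p = 0.0116 and 0.0192). The acetylcholine receptor subunit gene Chrnb1 had 27.4, 21.2 and 21.96 CPM in Age8 and 10.7, 9.06 and 9.82 CPM in Age12 (log2 fold change -1.25 ± 0.14, adjusted p = 0.0117). Myh8, the perinatal myosin, had 30.7, 8.99 and 19.3 CPM in Age8 and 15.4, 14.6 and 16.2 CPM in Age12, with overlapping groups and no call (adjusted p = 0.549).

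**Figure D4:**
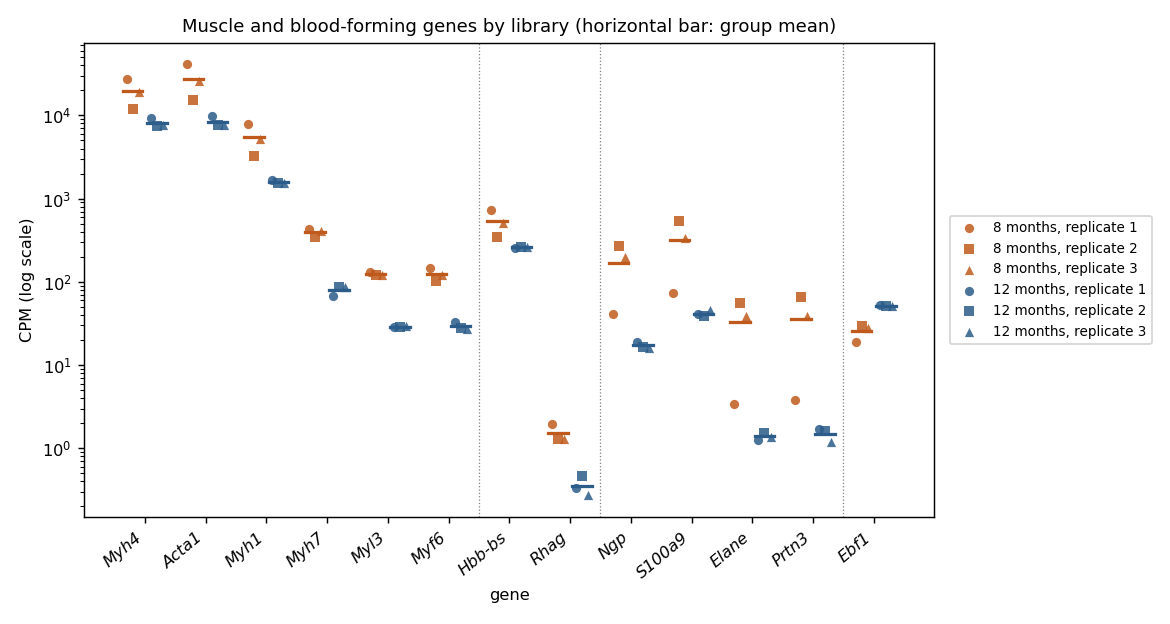
CPM (vertical axis, log scale) of 13 muscle and blood-forming genes (horizontal axis) in each library, with a bar at the group mean. Myh7, Myl3 and Myf6 separate all Age8 from all Age12 libraries by 3.12-fold or more, Hbb-bs is highest in Age8 replicate 1 (circle), and Elane and Prtn3 are high in Age8 replicates 2 and 3 and nearer to Age12 in replicate 1.

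**Figure D5:**
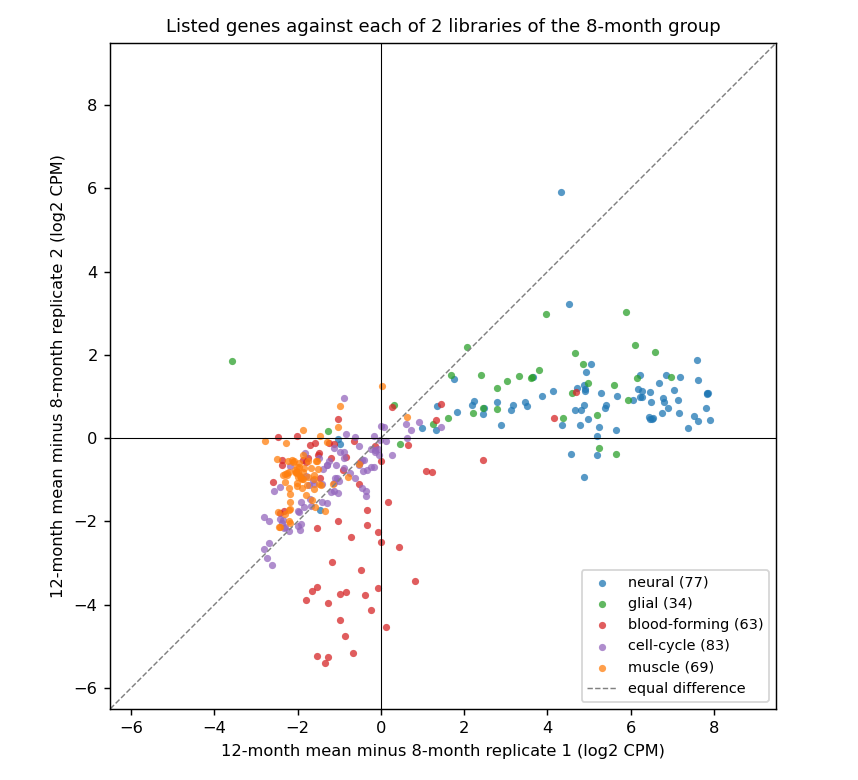
Difference of the Age12 mean from Age8 replicate 1 (horizontal axis) and from Age8 replicate 2 (vertical axis) in log2 CPM, 1 point per tested gene of the 5 groups, with the line of equal difference. Neural points stretch to the right (median 5.19 against replicate 1 and 0.80 against replicate 2), granulocyte genes fall further against replicate 2 (medians -0.97 and -3.96), and cell-cycle points lie around the line (medians -1.12 and -0.90).

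Of 10 hair cell and 12 stria vascularis genes none was called, and of 11 supporting cell genes 2 rose (8.00% of all genes rose and 13.6% fell). Myo7a, a myosin of hair cells, had 4.13, 8.89 and 6.05 CPM in Age8 and 13.1, 9.98 and 10.7 CPM in Age12, with no overlap and no call (log2 fold change 0.82 ± 0.30, adjusted p = 0.0972). Cib2, a protein of the mechanotransduction complex that muscle also expresses, had 189.9, 88.7 and 129.9 CPM in Age8 and 74.3, 61.8 and 63.8 CPM in Age12 and was highest in Age8 replicate 1, where the other 9 hair cell genes were lowest (adjusted p = 0.0513). Sox2, a transcription factor of supporting cells and of glia, had 10.7, 10.7 and 10.3 CPM in Age8 and 14.5, 18.9 and 16.3 CPM in Age12 and rose (log2 fold change 0.65 ± 0.13, adjusted p = 0.0271), as did Fgfr3 (log2 fold change 0.70 ± 0.17, adjusted p = 0.0421), which was named after its value was seen. The connexin genes Gjb2 and Gjb6, gap junction proteins of supporting cells, were lowest in Age8 replicate 1 and highest in replicate 2, with 15.4, 337 and 219.9 CPM in Age8 and 198, 169.7 and 170.1 CPM in Age12 for Gjb2, and 6.06, 225 and 137 CPM in Age8 and 177, 150.3 and 146 CPM in Age12 for Gjb6. The order of the Age8 libraries in these genes was that of the neural genes and the reverse of that of the muscle genes. How far this difference in tissue content takes part in the neural, red cell and muscle results was not tested.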

How the data were processed

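RNA of cochlear tissue was captured by poly-A, made into strand-marked libraries and sequenced as paired ends. Per the labels and the methods, the authors aligned reads to mouse GRCm39 with HISAT2, counted uniquely mapped reads per gene and deposited these counts. A second deposited table holds FPKM values that the authors computed from them. The counting program and its strand setting are not given in the sources used here. Gene coordinates are those of GENCODE M39.

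Counts outside chromosomes X and Y were tested with edgeR 4.0.16 (TMM factors, filterByExpr, quasi-likelihood F test, Benjamini-Hochberg adjustment over 17878 genes) in R 4.3.3, with Age12 minus Age8 as the contrast. The code was tested on simulated data. Calls needed an adjusted p no larger than 0.05. A 2-fold change also had to reach a fold of 2 in either direction. FPKM served as a check (limma 3.58.1 on the log2 scale with pseudocounts of 1 and 0.1, and a two-sided exact permutation test). Fold changes on those scales understate the change of low genes. FPKM also lack the TMM factors, and medians over all genes were 0.23 and 0.42 at these pseudocounts (0.47 with library totals). Falls of highly counted genes were therefore smaller as well. Acta1 had log2 fold changes of -1.71 in the main fit, -1.11 at both pseudocounts and -1.10 with totals. Ctrl values given in FPKM lack the factors too. Against groups with at most 3 counts in each library, lower bounds are given. DESeq2 1.42.0, other factors and filters, a fit of all 9 libraries, a replicate block and leaving out each library were alternatives.

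The members and gene lists were chosen with earlier results of these data known. Genes named were, in each list of the 5 groups, the 3 of highest mean CPM and the 3 of smallest adjusted p, the 10 largest 2-fold rises and falls with a mean of at least 1 CPM and no overlap, the 2 of highest CPM in each other marker list, and Myo7a and Sox2. Not every one is described. Members of the nociceptor and choroid plexus lists, the genes of the printed promoters, Tnnc2, Ccna2, Cdkn1b, Cdkn2c, Myh7b and Fgfr3 were chosen after their values were seen. Some genes that this rule names, among them members of the neural, myelin and choroid plexus lists, are not reported here.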

Additional observations from a re-analysis of the deposited data

Results flagged for a closer look

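Xist, the X-linked gene that silences one X chromosome in female cells, was left out of the comparison with the other X-linked genes. Its level was 0.632, 0.352 and 0.611 CPM in Age8 replicates 1, 2 and 3 and 0.412 CPM in Age12 replicate 1, but 40.7 CPM in Age12 replicate 2 and 38.5 CPM in Age12 replicate 3. These 2 values stand out because they come from a gene outside the comparison and lie above every Age8 library. The Y-linked gene Ddx3y was present in all 6 libraries, at 22.5, 48.4 and 37.6 CPM in Age8 and 25.1, 36.5 and 37.4 CPM in Age12. In the 3 Ctrl libraries Xist stood at 241, 224 and 238 CPM and Ddx3y at no more than 0.385 CPM. The sex of the mice was not given for any library. By these 2 genes, the Ctrl libraries held RNA of females, and the Age8 libraries and Age12 replicate 1 RNA of males. Age12 replicates 2 and 3 held transcripts of both genes, and how these came together in a library cannot be told from the files. Sex as read from these 2 genes thus varied with age, above all between Ctrl and the later ages, and its part in the differences between the ages was not tested.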

How the results depend on the processing

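The counts of calls depended on how many libraries entered and on scaling, and the causes were not tested. The 1659 2-fold changes became 2702 with DESeq2 (1378 rises), 452 with library totals alone (358 rises and 94 falls), and 1096 with limma on log2(FPKM + 0.1) (168 falls), while limma on log2(FPKM + 1) gave 1039 rises and 95 falls. Without the 2-fold limit there were 3869. Leaving out each library in turn gave 1 to 3057 2-fold changes, 1 to 1483 rises and 0 to 1574 falls. The lows came from fits without Age8 replicate 3 (2), Age12 replicate 2 (1) or Age12 replicate 3 (1), with 5158, 5054 and 5049 genes at an unadjusted p below 0.05. Further choices made after the data were examined, 2 libraries against 2 (no replicate 3 of either age) and all 3 ages without Age8 replicate 3, gave 0 (2235 genes at an unadjusted p below 0.05) and 476 2-fold changes (162 rises and 314 falls), with a median of -0.15 over all genes in the latter.

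The calls within the groups moved with them, counted here over the members each fit tested, so that for blood-forming genes 37 and 40 stand where the 63 genes of the main comparison give 36 and 39. The 6 neural rises became 19 with DESeq2, 3 with totals, 27 with limma on log2(FPKM + 1), 0 to 65 without single libraries and 1 with 3 ages without Age8 replicate 3. The 12 glial rises became 23, 5, 23, 0 to 28 and 3 in the same order. The 24 blood-forming falls became 37, 0, 6, 0 to 40 and 2, and 1 with limma on log2(FPKM + 0.1). The 50 cell-cycle falls became 9 with totals, 27 and 15 with limma at the 2 pseudocounts, 0 to 53 without single libraries and 30 with 3 ages without Age8 replicate 3. The 50 muscle falls became 28 with totals, 17 with all 9 libraries, 0 to 62 without single libraries and 1 with 3 ages without Age8 replicate 3. With 2 libraries against 2 all 5 counts were 0. The shares of all genes moved too. With DESeq2 13.7% rose and 15.8% fell, and with totals 2.38% and 1.14%. Without Age8 replicate 1 they were 17.3% and 18.6%, and with all 9 libraries 9.96% and 14.2%. No such share is given for limma, for 3 ages without Age8 replicate 3, or for fits without Age8 replicate 2 or an Age12 library. Member counts from those fits, here and above, have no baseline.

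Same-numbered Age8 and Age12 libraries had correlations of -0.32, -0.34 and 0.08 between their deviations, so the numbers do not pair the samples. With the replicate block the number of 2-fold changes was 0 (5661 genes at an unadjusted p below 0.05), as were all 5 group counts.

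Of 135 named genes, 89 were called. The sign of 1 of these turned: Cdkn1c, to 0.010 with library totals. Uncalled genes turned as follows. With totals the log2 fold change was 0.44 for Btg2, 0.22 for Cdkn1a, 0.16 for Coch, 0.23 for Gjb2, 0.046 for Ltf, 0.30 for Mcm7, 0.28 for Myh8, 0.23 for Pcna and 0.12 for Tpx2. With limma on log2(FPKM + 1) and log2(FPKM + 0.1) it was 0.45 and 0.47 for Btg2, 0.17 and 0.18 for Cdkn1a, 1.63 and 1.71 for Coch, 1.16 and 1.25 for Gjb2, 0.22 and 0.29 for Mcm7, 0.15 and 0.28 for Myh8, 0.21 and 0.23 for Pcna, and 0.046 and 0.071 for Tpx2. With the replicate block it was 0.68 for Coch and 0.54 for Gjb2. Without single libraries it ranged from -0.51 to 0.33 for Btg2, -0.72 to 0.66 for Coch, -0.079 to 0.34 for Gata2, -0.64 to 0.63 for Gjb2, -0.21 to 1.16 for Gjb6, -1.17 to 0.40 for Ltf, -0.66 to 0.12 for Myh8 and -0.058 to 1.35 for Slc1a2. Gjb2 was also 0.058 with 2 libraries against 2, 0.048 with DESeq2 without Age8 replicate 3 and 0.016 with 3 ages without it.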

Other observations

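Genes of the choroid plexus, the tissue in the brain ventricles that makes cerebrospinal fluid, were higher in Age12. The list of 12 was written after some members had been seen among the largest rises, so its counts are a description, and 11 rose and 1 fell (8.00% and 13.6% of all genes). The median log2 fold change was 3.78, with 4.77 against Age8 replicate 1 and 3.00 against replicate 2 (2.01 on the log2(FPKM + 1) scale). Enpp2, a secreted enzyme that makes lysophosphatidic acid, had 27.5, 40.1 and 38.01 CPM in Age8 and 819, 568 and 550.3 CPM in Age12 (log2 fold change 4.20 ± 0.26, adjusted p = 0.00501 by edgeR). Folr1, a folate receptor, had 0.757, 0.413 and 0.495 CPM in Age8 and 28.3, 17.8 and 19.2 CPM in Age12 (log2 fold change 5.32 ± 0.33, adjusted p = 0.00501). The bicarbonate transporter gene Slc4a5 had 0, 0.0953 and 0.141 CPM in Age8 and 14.7, 11 and 9.57 CPM in Age12 (log2 fold change 6.99 ± 0.58, adjusted p = 0.00845). All Age8 libraries were low for these genes, and Age12 replicate 1 was the highest library for each. Kl, which encodes klotho, had 0, 2.83 and 1.202 CPM in Age8 and 36.1, 22.4 and 25.8 CPM in Age12, with a wider spread in Age8 (log2 fold change 4.32 ± 1.04, adjusted p = 0.0389). The 1 fall was that of Aqp1, a water channel that blood vessels and red cells also make, with 204, 165 and 170.3 CPM in Age8 and 89.9, 81.95 and 83.1 CPM in Age12 (log2 fold change -1.08 ± 0.12, adjusted p = 0.0113). How much brain tissue each library held was not recorded, and its part in these values was not tested.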
